A study of Arabidopsis halleri with 12 samples.

Results

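In roots of Arabidopsis halleri, 56 genes gave a higher signal in an AhNAS2-RNAi line than in wild type whether or not zinc was added to the nutrient solution. They were taken from the 13513 array probe sets that the annotation pairs with exactly 1 gene. They were chosen by their log2 signals, with some gene names barred. A probe set was kept when each of the 6 RNAi arrays lay above each of the 6 WT arrays and the mean of the RNAi arrays was at least 0.3 higher on the log2 scale. This held for 59 probe sets, or 0.437% of those with 1 gene, and 3 of them (AT4G18593, AT1G71695 and CCOAMT) were left out by name. Also barred by name were CCS, symbols beginning XTH, UGT, TBL, EXP, CYP, GST, SCPL, LCR, TUA or TUB, and those beginning in lowercase. No probe set barred by these further names met the limits. The line difference of the 56 genes is therefore what chose them, and it is given below as a description without a test. In the opposite direction 84 probe sets, 0.622%, met the same limits.

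Arabidopsis halleri is a metal hyperaccumulator that moves zinc from the root to the shoot and stores it in leaves. Nicotianamine synthases make nicotianamine, a small chelator that binds zinc, iron and other metals and keeps them mobile inside the plant. In this species AhNAS2 is known for a part in moving zinc from root to shoot. RNA interference lowers the transcript of a gene without deleting it.

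The WT arrays carried RNA of Langelsheim wild-type roots and the RNAi arrays that of the line AhNAS2-RNAi-1-2, all from plants 5 weeks old, grown as clones in hydroponic culture. Each line was kept in control Hoagland solution or in that solution with 10 µM Zn2+ added, which gave 4 groups of 3 arrays, and the roots of 3 plants were pooled for each. Per the series' design text there were 3 independent experiments. No label ties an array to an experiment, and the p-values below cover only the variation among the pooled root samples. A single RNAi line was profiled, so suppression of AhNAS2 and any other difference between this line and wild type cannot be told apart. In the annotation used here no probe set carries a nicotianamine synthase symbol, so the arrays were not checked against their target. In bulk root RNA a change in the amount of transcript per cell and a change in the share of a cell type cannot be told apart.

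Signals were log2 summaries per probe set, between 2.46 and 14.3 over all arrays, with array medians of 5.34 to 5.38. Gene names are those of Arabidopsis thaliana, so a signal also depends on how well the A. halleri transcript matches the probes. Hybridisation spike-in controls, 9 probe sets that carry no plant RNA, averaged 9.64 to 10.03 over the WT arrays and 9.60 to 10.28 over the RNAi arrays, with a mean line difference of -0.0097. Of the root markers EXPA7 and EXPA18, both root hair expansins, had named probe sets, with mean levels of 8.03 and 6.99 and line differences of -0.028 and 0.045. A partial list of photosynthesis genes gave 6 with a named probe set: rbcL, psbA, RCA, LHCB4.1, LHCB4.2 and LHCB4.3. Their mean levels were 4.70 to 6.03 and their line differences -0.27 to 0.14. Neither list held one of the 56 genes. EXPA7, EXPA18, rbcL and psbA could not be among them, being barred by name. The lines overlapped in every gene of both lists.

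The differences of the 56 genes were small. Their median was 0.42 on the log2 scale, a 1.34-fold higher signal, with a range of 0.31 to 0.98, and 0 of the 56 genes reached a difference of 1. At least 0.5 was reached by 20 genes, while 47 were less than 1.5-fold higher. The 3 genes left out by name, which met the same limits, differed by 2.69 (AT4G18593), 1.31 (AT1G71695) and 0.67 (CCOAMT). Over all single-gene probe sets the median difference was -0.00089. The distance from the highest WT array to the lowest RNAi array had a median of 0.064, and in 20 genes it was under 0.05. RNAi zinc replicate 1 was the array most often lowest in the RNAi line (16 genes). Leaving an array out loosens the rule, and without this one 87 genes met it, 55 of the 56 among them.

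**Figure D1:**
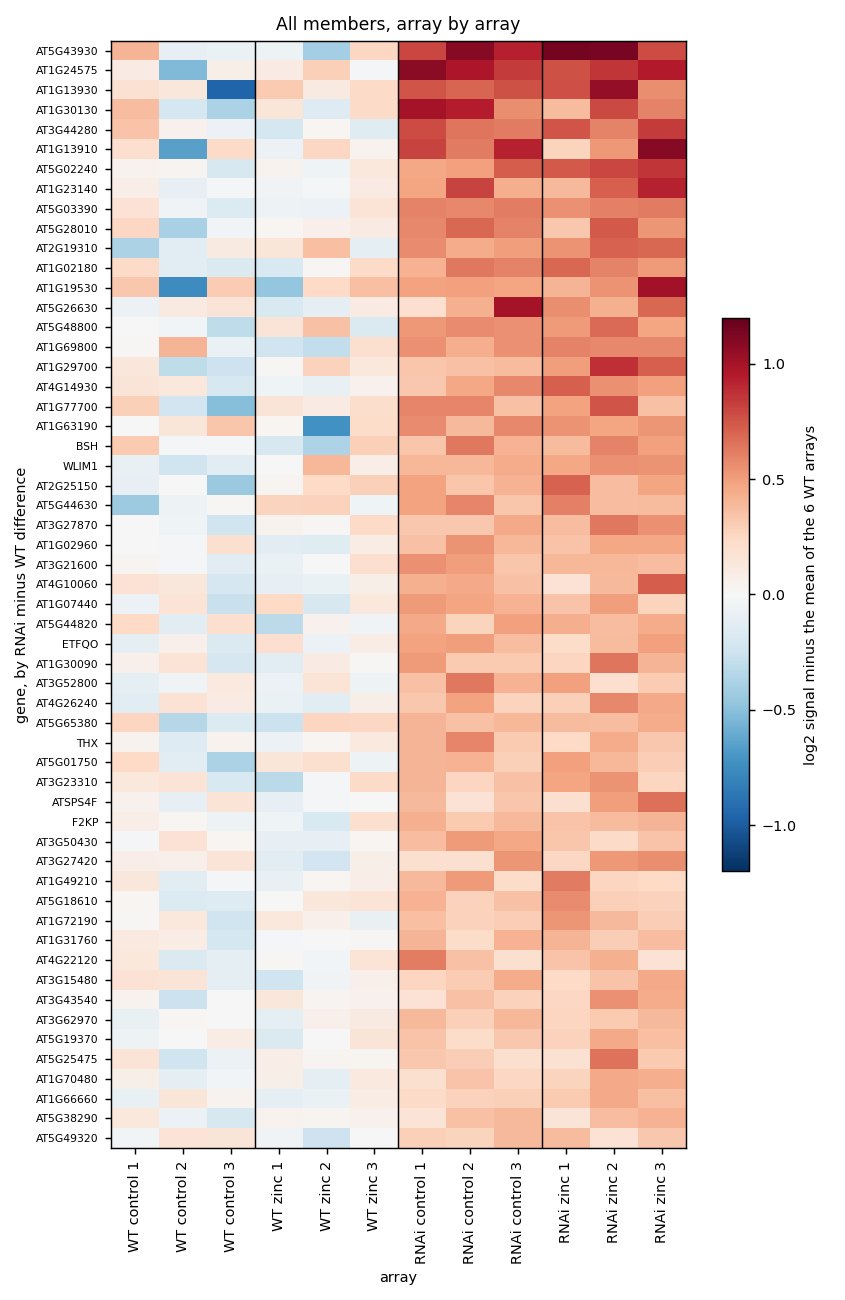
Log2 signal of each of the 56 genes (rows, sorted by line difference) on each of the 12 arrays (columns), as the distance from the gene's mean over the 6 WT arrays. The RNAi columns are red throughout by the rule that chose the genes; the differences run from 0.98 at the top to 0.31 at the bottom, and single WT arrays stand out in several rows, such as WT control replicate 3 for AT1G13930.

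The largest difference belonged to AT5G43930, which in A. thaliana encodes a protein of WD40 repeats, a fold that holds protein complexes together. AT5G43930 read 6.12, 5.61 and 5.62 in WT control, 5.64, 5.29 and 5.95 in WT with zinc, 6.51, 6.80 and 6.64 in RNAi control and 6.85, 6.84 and 6.49 in RNAi with zinc. The RNAi mean was 1.98-fold the WT mean, and the highest WT array stayed 0.37 below the lowest RNAi array. AT1G24575, a gene without a described role here, was 1.88-fold higher and had the widest distance between the lines of the 56 genes, 0.48. AT1G24575 read 5.85, 5.22 and 5.83 in WT control, 5.85, 6.04 and 5.73 in WT with zinc, 6.84, 6.73 and 6.59 in RNAi control and 6.52, 6.61 and 6.70 in RNAi with zinc. All RNAi arrays sat in a narrow band for this gene, while 1 WT control array lay clearly below the other WT arrays.

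AT1G13930, known in A. thaliana for a part in salt tolerance, gave the strongest array signal of the 56, at a mean of 11.30. AT1G13930 read 11.10, 11.05 and 9.95 in WT control, 11.23, 11.02 and 11.15 in WT with zinc, 11.67, 11.62 and 11.68 in RNAi control and 11.69, 11.97 and 11.48 in RNAi with zinc. The means differed by 0.77, with WT control replicate 3 more than 1 below every other array of this gene and the other WT arrays close together. AT1G30130 followed with 0.71. AT1G30130 read 8.99, 8.41 and 8.24 in WT control, 8.77, 8.47 and 8.85 in WT with zinc, 9.62, 9.56 and 9.17 in RNAi control and 8.9999, 9.41 and 9.21 in RNAi with zinc. Here WT control replicate 1 came within 0.0081 of the lowest RNAi array, so the separation was the narrowest among the 4 largest differences.

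**Figure D2:**
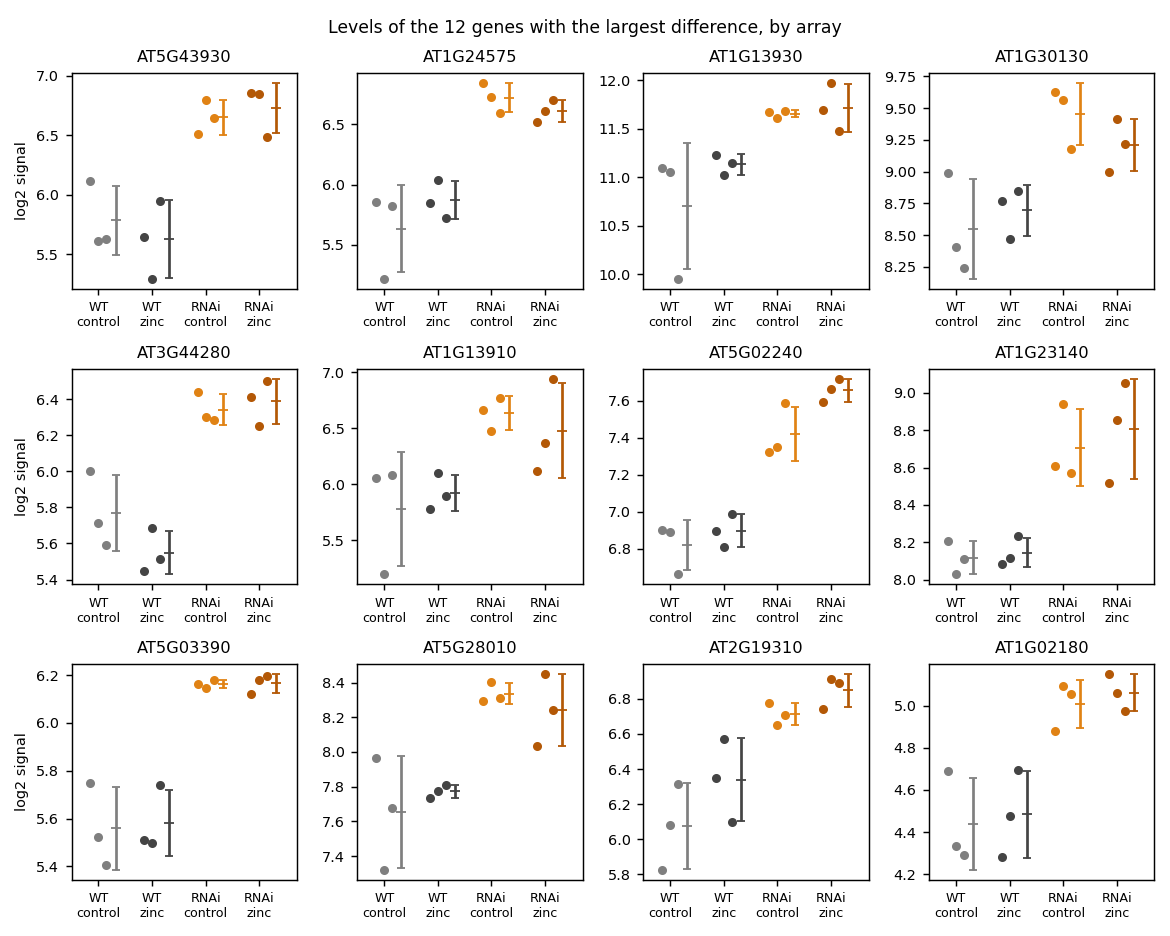
Log2 signal on each array (points, replicates 1 to 3 from left to right) for the 12 genes with the largest line difference, with the group mean and SD (n = 3) beside the points; each panel has its own axis, which does not start at 0. AT5G03390 shows the tightest RNAi arrays, between 6.12 and 6.20, whereas AT1G13910 and AT1G30130 nearly touch between the lines.

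AT3G44280, with no described role here, and AT5G02240, an enzyme-like protein with a Rossmann fold for binding nucleotide cofactors, both kept a clear distance between the lines. AT3G44280 read 6.001, 5.72 and 5.59 in WT control, 5.45, 5.68 and 5.52 in WT with zinc, 6.44, 6.30 and 6.28 in RNAi control and 6.41, 6.25 and 6.4998 in RNAi with zinc. AT5G02240 read 6.90, 6.89 and 6.66 in WT control, 6.90, 6.81 and 6.99 in WT with zinc, 7.33, 7.35 and 7.59 in RNAi control and 7.59, 7.66 and 7.72 in RNAi with zinc. The WT arrays of AT3G44280 averaged 5.77 without and 5.55 with zinc and overlapped; the RNAi arrays of AT5G02240 averaged 7.42 and 7.66 and met at their ends. AT5G03390 had the smallest RNAi spread of all 56 genes, 6.16 ± 0.027 over the 6 arrays (log2 signal, SD, n = 6), against 5.57 ± 0.14 in WT. AT5G03390 read 5.75, 5.52 and 5.41 in WT control, 5.51, 5.496 and 5.74 in WT with zinc, 6.16, 6.15 and 6.18 in RNAi control and 6.12, 6.18 and 6.20 in RNAi with zinc. The lines lay 0.37 apart at their closest arrays, about the distance of AT5G43930.

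Roles known in A. thaliana could be given for 38 of the 56 genes, and they fell into 8 broad classes written down after the values were seen. No class made up the set: the largest, stress proteins and protein turnover, had 8 genes. Enzymes of varied function numbered 7, signalling proteins 6, chromatin and transcription proteins 5, carbon and redox metabolism 5, membrane transport 3, specialised metabolism 3 and the cytoskeleton 1. The other 18 genes are described by their values only.

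Among the stress and turnover genes, AT5G28010, of the major latex protein-like family, and AT2G19310, a small heat shock protein, differed most after AT1G13930. AT5G28010 read 7.96, 7.32 and 7.68 in WT control, 7.73, 7.77 and 7.81 in WT with zinc, 8.29, 8.41 and 8.31 in RNAi control and 8.03, 8.45 and 8.24 in RNAi with zinc. AT2G19310 read 5.82, 6.08 and 6.32 in WT control, 6.35, 6.57 and 6.10 in WT with zinc, 6.78, 6.65 and 6.71 in RNAi control and 6.74, 6.91 and 6.89 in RNAi with zinc. A single WT control array was lowest in each gene, and the RNAi arrays of AT2G19310 spread less (6.78 ± 0.10) than its WT arrays (6.21 ± 0.26). The thaumatin-family gene AT1G77700, related to pathogenesis-related proteins, was at 5.405 ± 0.31 in WT and 5.92 ± 0.16 in RNAi. AT3G52800, whose A20/AN1 zinc fingers mark a family of stress-associated proteins, was among the strongest signals. AT3G52800 read 9.67, 9.74 and 9.90 in WT control, 9.71, 9.94 and 9.71 in WT with zinc, 10.13, 10.41 and 10.20 in RNAi control and 10.27, 9.98 and 10.08 in RNAi with zinc. Its lines were 0.40 apart in the mean and 0.043 at the closest arrays, WT zinc replicate 2 and RNAi zinc replicate 2. RING proteins, which mostly act as ubiquitin ligases, were represented by AT1G49210 (0.37), AT3G62970 (0.34) and AT1G66660 (0.32). The first and the last of these gave dim signals, with means of 4.13 and 4.10, below the array medians.

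Signalling genes held some of the larger differences. AT1G13910, with leucine-rich repeats, a fold used for protein recognition, was 1.63-fold higher but nearly touched between the lines. AT1G13910 read 6.06, 5.197 and 6.09 in WT control, 5.78, 6.10 and 5.90 in WT with zinc, 6.66, 6.47 and 6.77 in RNAi control and 6.12, 6.37 and 6.94 in RNAi with zinc. WT control replicate 2 and RNAi zinc replicate 1 were the low arrays of their groups. AT1G23140, of the C2-domain proteins that bind membranes in a calcium-dependent way, was instead tight in WT (8.13 ± 0.076) and looser in RNAi (8.76 ± 0.22). AT1G23140 read 8.21, 8.03 and 8.11 in WT control, 8.09, 8.12 and 8.23 in WT with zinc, 8.61, 8.94 and 8.57 in RNAi control and 8.52, 8.85 and 9.05 in RNAi with zinc. Every RNAi array was at least 0.285 above every WT array. AT5G48800 of the NPH3 family, named after a protein of blue-light bending, differed by 0.55 and AT1G69800, with the CBS domains that sense nucleotides, by 0.55. AT1G69800 read 6.92, 7.31 and 6.83 in WT control, 6.66, 6.61 and 7.10 in WT with zinc, 7.45, 7.34 and 7.45 in RNAi control and 7.50, 7.48 and 7.48 in RNAi with zinc. The RNAi arrays of AT1G69800 stayed within a narrow band (7.45 ± 0.056), and WT control replicate 2 came close to it.

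Both protein kinases of this class differed less. AT5G18610 is a receptor-like cytoplasmic kinase that in A. thaliana passes the signal of fungal chitin on to MAP kinases. AT5G18610 read 7.07, 6.88 and 6.89 in WT control, 7.05, 7.18 and 7.21 in WT with zinc, 7.47, 7.32 and 7.40 in RNAi control and 7.61, 7.33 and 7.32 in RNAi with zinc. Its difference was 0.36, and that of the AGC-family kinase AT3G23310 was 0.38 (5.78 ± 0.21 in WT and 6.16 ± 0.11 in RNAi).

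Of the chromatin and transcription genes BSH encodes the SNF5-type subunit of SWI/SNF complexes, which move nucleosomes. BSH read 6.60, 6.26 and 6.26 in WT control, 6.09, 5.91 and 6.57 in WT with zinc, 6.62, 6.91 and 6.70 in RNAi control and 6.66, 6.88 and 6.77 in RNAi with zinc. The means were 0.48 apart, and WT control replicate 1 and WT zinc replicate 3 reached almost to the lowest RNAi array. AT5G26630, of the MADS-box family of DNA-binding regulators, gave a dim signal, with 1 RNAi control array above all others. AT5G26630 read 4.18, 4.35 and 4.40 in WT control, 4.07, 4.14 and 4.34 in WT with zinc, 4.45, 4.67 and 5.25 in RNAi control and 4.81, 4.68 and 4.93 in RNAi with zinc. The SWIB-domain gene AT1G31760 (0.35) and the B3-domain gene AT5G25475 (0.33) lay near the lower limit of the rule.

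Genes of carbon and redox metabolism lay close together, with differences of 0.36 to 0.41. F2KP makes and breaks down the sugar phosphate that sets the balance of glycolysis and sucrose synthesis. F2KP read 8.08, 8.03 and 7.94 in WT control, 7.95, 7.82 and 8.19 in WT with zinc, 8.42, 8.31 and 8.39 in RNAi control and 8.35, 8.38 and 8.41 in RNAi with zinc. Its RNAi arrays were nearly level, at 8.38 ± 0.042, and the WT arrays at 8.001 ± 0.13. ATSPS4F is a sucrose-phosphate synthase, which makes the precursor of sucrose. ATSPS4F read 3.38, 3.22 and 3.49 in WT control, 3.22, 3.30 and 3.33 in WT with zinc, 3.71, 3.50 and 3.66 in RNAi control and 3.51, 3.83 and 3.98 in RNAi with zinc. This was the dimmest of the 56 genes, with a mean of 3.51; its difference was 0.38. ETFQO passes electrons from amino acid breakdown into the mitochondrial electron chain. ETFQO read 6.23, 6.40 and 6.17 in WT control, 6.54, 6.27 and 6.43 in WT with zinc, 6.82, 6.84 and 6.71 in RNAi control and 6.56, 6.72 and 6.83 in RNAi with zinc. RNAi zinc replicate 1 nearly met the highest WT array. THX, a plastid thioredoxin that reduces disulphides of target proteins, was at 6.71 ± 0.097 in WT and 7.09 ± 0.12 in RNAi. AT1G72190, of the 2-hydroxyacid dehydrogenase family, was at 5.99 ± 0.14 and 6.35 ± 0.096.

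The 3 genes of specialised metabolism were AT2G25150, an acyltransferase that in A. thaliana couples hydroxycinnamic acids to the polyamine spermidine, AT5G44630, a terpene synthase, and AT1G07440, related to tropinone reductases. AT2G25150 read 6.71, 6.80 and 6.37 in WT control, 6.84, 7.05 and 7.10 in WT with zinc, 7.29, 7.14 and 7.23 in RNAi control and 7.52, 7.18 and 7.29 in RNAi with zinc. AT5G44630 read 4.49, 4.87 and 4.95 in WT control, 5.195, 5.21 and 4.88 in WT with zinc, 5.42, 5.52 and 5.26 in RNAi control and 5.54, 5.31 and 5.32 in RNAi with zinc. In both, the WT mean was lower in control medium than with zinc, and in AT5G44630 those WT arrays overlapped. The line difference was 0.59 and 0.63 in control medium and 0.33 and 0.29 with zinc. AT1G07440 differed by 0.42.

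Transport proteins among the 56 were AT5G65380, of the MATE family that exports organic compounds, AT4G22120, of the OSCA family of calcium-permeable channels opened by osmotic stress, and AT3G27870, a P4-type ATPase that flips lipids between membrane leaflets. AT5G65380 read 8.75, 8.15 and 8.33 in WT control, 8.23, 8.75 and 8.74 in WT with zinc, 8.90, 8.84 and 8.89 in RNAi control and 8.87, 8.86 and 8.94 in RNAi with zinc. The RNAi arrays of AT5G65380 stayed between 8.84 and 8.94, while 3 of the WT arrays lay just under them and 3 far lower. AT4G22120 was at 7.72 ± 0.13 in WT and 8.06 ± 0.16 in RNAi, with 0.0056 between its closest arrays. AT3G27870 was at 5.997 ± 0.15 and 6.44 ± 0.13.

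WLIM1 bundles actin filaments and was the only cytoskeletal gene of the set. WLIM1 read 7.94, 7.79 and 7.90 in WT control, 8.02, 8.43 and 8.11 in WT with zinc, 8.43, 8.43 and 8.48 in RNAi control and 8.496, 8.58 and 8.57 in RNAi with zinc. WT zinc replicate 2 came within 0.00063 of the lowest RNAi array, the smallest distance of the 56 genes, so that 1 array decided its membership. Of 7 actin and LIM genes with a named probe set WLIM1 was one, placed in the set by its own difference, and of the others 3 had a higher and 3 a lower mean in RNAi. The relative WLIM2b differed by 0.20, PLIM2b by 0.45 and PLIM2a by 0.11, each with overlapping lines, whereas WLIM2a was at -0.070 and the actin gene ACT11 at -0.50.

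Of the remaining enzymes, AT1G29700 of the metallo-hydrolase family and AT4G14930 of the SurE nucleotidase family each differed by about the same amount. AT1G29700 read 5.63, 5.19 and 5.24 in WT control, 5.51, 5.77 and 5.62 in WT with zinc, 5.82, 5.84 and 5.87 in RNAi control and 5.99, 6.37 and 6.21 in RNAi with zinc. AT4G14930 read 6.58, 6.55 and 6.23 in WT control, 6.37, 6.34 and 6.47 in WT with zinc, 6.75, 6.89 and 7.001 in RNAi control and 7.14, 6.97 and 6.92 in RNAi with zinc. AT1G29700 was highest in RNAi with zinc, where 3 arrays read above all others. The glucosylceramidase relative AT4G10060 differed by 0.42, the rhodanese-domain gene AT5G19370 by 0.33 and AT5G38290, a peptidyl-tRNA hydrolase, by 0.31. AT5G44820, of a family of sugar transferases, was the only gene of the set with a second probe set. AT5G44820 read 3.84, 3.47 and 3.80 in WT control, 3.29, 3.65 and 3.56 in WT with zinc, 4.06, 3.87 and 4.09 in RNAi control and 4.04, 3.98 and 4.04 in RNAi with zinc. The second probe set gave 4.60, 4.03 and 4.37 in WT control, 3.67, 4.72 and 4.36 in WT with zinc, 4.66, 4.66 and 5.305 in RNAi control and 4.59, 4.86 and 5.04 in RNAi with zinc. Its mean difference was larger, 0.56, but the lines overlapped by 0.13, so it would not have met the rule; both probe sets were measured on the same arrays and both were dim.

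Genes for which no role is given ranged widely in level. AT1G02180 was at 4.46 ± 0.19 in WT and 5.03 ± 0.095 in RNAi. AT1G19530 had a WT spread of 0.48 (SD, n = 6), the widest of the 56 genes, with AT1G13930 next. AT1G19530 read 7.13, 6.05 and 7.11 in WT control, 6.35, 7.05 and 7.17 in WT with zinc, 7.29, 7.30 and 7.29 in RNAi control and 7.22, 7.35 and 7.82 in RNAi with zinc. Of its WT arrays 2 lay far below the other 4, which ran close under the RNAi arrays. AT1G63190 showed a like picture with 1 low array, at 4.36 in WT zinc replicate 2, and a difference of 0.51. Differences of 0.40 to 0.43 were found for AT1G02960 (0.43), AT3G21600 (0.42), AT1G30090 (0.41) and AT4G26240 (0.40). Smaller ones belonged to AT5G01750 (0.38), AT3G50430 (0.37), AT3G27420 (0.37), AT3G15480 (0.34), AT3G43540 (0.34), AT1G70480 (0.32) and AT5G49320 (0.31). AT3G15480 had a strong signal, with a mean of 9.51.

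Signals of different probe sets are not comparable as transcript levels, and the following describes signal only. The mean signals of the 56 genes ran from 3.51 to 11.30 with a median of 6.52, against a median of 4.98 for all single-gene probe sets. Below the middle of the array medians, 5.35, lay 11 of the 56 genes (19.6%) and 55.6% of all single-gene probe sets. In 4 genes the WT mean was below that value and the RNAi mean above it. The plot of level against difference shows few probe sets past the lowest difference asked near the lowest signals.

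**Figure D3:**
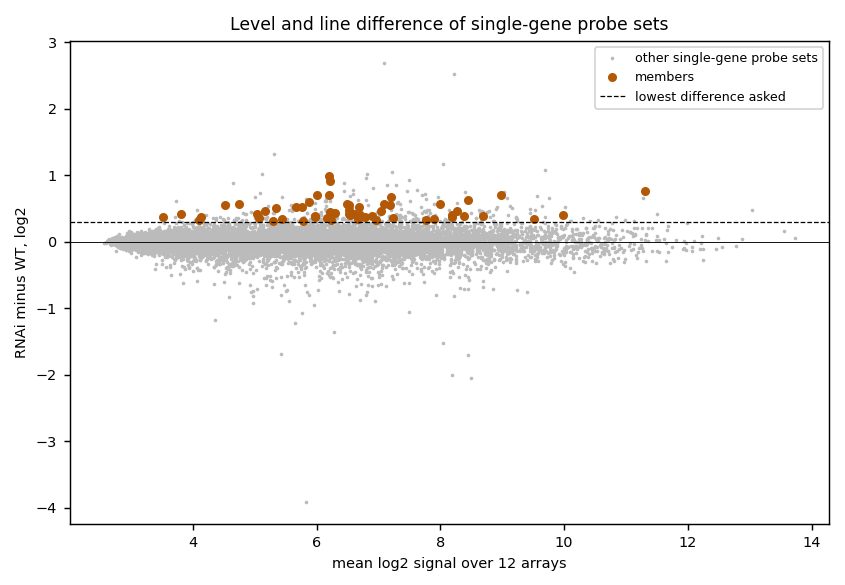
RNAi minus WT difference of the 6-array means (vertical, log2) against the mean log2 signal over the 12 arrays (horizontal) for all 13513 single-gene probe sets (grey) and the 56 genes (brown), with the lowest difference asked as a dashed line. The 56 genes span levels of 3.51 to 11.30, and many grey points lie above the line because their lines overlapped or, for 3 genes, because they were left out by name.

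At the limits of the rule, the last genes inside by size were AT5G49320 (0.31), AT5G38290 (0.31) and AT1G66660 (0.32), and the first outside were AT4G02340 (0.297), AT3G24080 (0.286) and AT4G12790 (0.282), whose lines also did not overlap. By separation, WLIM1, AT4G22120 and AT4G10060 were kept with distances of 0.00063, 0.0056 and 0.0060. AT2G18210, AT4G22212 and AT1G56145 were not, with overlaps of -0.00088, -0.0011 and -0.0013, although their mean differences were 0.68, 2.52 and 0.36. At least the 0.3 limit was reached by 338 single-gene probe sets (2.5%), most of which overlapped between the lines.

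The rule drew on the arrays of both media, so the following values by medium are partly set by the choice and are a description. The 56 genes had a median difference of 0.45 in control medium (range 0.21 to 1.09) and 0.43 with zinc (range 0.26 to 1.1003). The larger value was found with zinc in 30 genes and in control medium in 26. Taken alone, the 3-against-3 arrays of control medium met the same limits for 49 of the 56 genes and those of added zinc for 50, and 43 genes met them in each. AT1G24575 had the largest difference in control medium (1.09, and 0.74 with zinc) and AT5G43930 the largest with zinc (1.1003, and 0.87 in control medium). AT3G27420 had the smallest in control medium (0.21, and 0.54 with zinc).

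The media also allowed a choice made on some arrays to be read on others. With the same limits applied to the 6 arrays of control medium, 215 single-gene probe sets (1.59%) qualified, and with those of added zinc 215 qualified as well (1.59%). Of the 215 picked in control medium 66 also qualified with zinc, or 30.7%, beside 1.59% of all single-gene probe sets. The 2 media share no arrays but share the 2 lines, and plants of an experiment may have been grown side by side. Of the 66, 43 belong to the 56 genes, 3 were left out by name, and 20 had lines that overlapped when the media were put together.

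**Figure D4:**
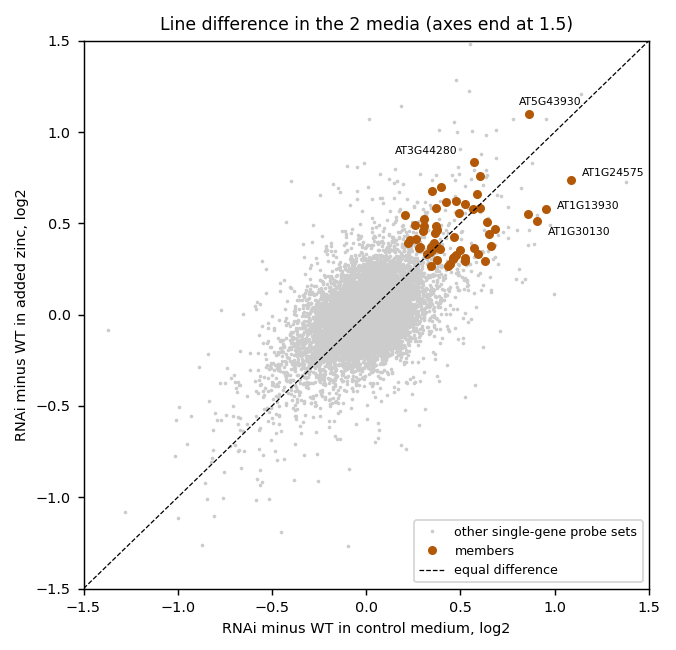
RNAi minus WT difference with added zinc (vertical) against that in control medium (horizontal), both log2 differences of 3-array means, for single-gene probe sets (grey) and the 56 genes (brown), with equal differences as a dashed line; 13 probe sets lie outside the axes. The 56 genes gather on both sides of the line, with AT1G24575 to its right (1.09 and 0.74) and AT5G43930 to its left (0.87 and 1.1003).

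Whether the line difference depended on zinc was fitted as an interaction. The rule drew on the same 12 arrays and left out genes whose lines separated in a single medium, which holds this value down, so that nothing is read from the counts. With limma fitted over all probe sets, 0 of the 56 genes passed (smallest adjusted p = 0.9999), 0 had an unadjusted p under 0.05, and over the whole array 0 passed (0.0%) and 497 (2.18%) had such a p. Positive values mean a larger line difference with zinc. The highest were AT3G27420 at 0.34 (SE 0.17), AT1G63190 at 0.33 (SE 0.27) and AT1G69800 at 0.30 (SE 0.20). The lowest were AT1G30130 at -0.39 (SE 0.27), AT1G13930 at -0.37 (SE 0.35) and AT1G24575 at -0.35 (SE 0.22). The median over the 56 genes was 0.0082, beside 0.0022 over all single-gene probe sets. Each gene's 95% interval spanned 0 (56 of 56, not adjusted for the number of genes), and the median half-width was 0.37, about as large as the median line difference.

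Added zinc itself was tested in the same fit. The rule did not ask for a zinc effect in either direction. A shift shared by both lines and as large as the line difference would have made them overlap and kept a gene out. A large enough rise in WT alone or fall in RNAi alone could do so too, whereas a rise in RNAi alone or a fall in WT alone could not. With limma 0 of the 56 genes passed in WT, in RNAi or over both lines, with smallest adjusted p-values of 0.97, 0.9996 and 0.49, and over the whole array 0 probe sets passed in each (0.0%). At an unadjusted p under 0.05 there were 4 of the 56 genes in WT, all higher with zinc, 2 in RNAi, both higher, and 6 over both lines, of which 5 were higher. Those counts are 7.14%, 3.57% and 10.7% of the 56, beside 5.04%, 4.52% and 7.62% of all probe sets. Counted in the higher direction only, the shares of all probe sets were 2.67% for WT, 1.94% for RNAi and 3.67% over both lines, where the lower direction held 3.96%. Without WT control replicate 1 the whole-array count in WT was 1, and over both lines it was 1 without WT zinc replicate 3 and 4 without RNAi control replicate 3. None of the 56 genes was among these.

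The values over both lines were led by AT1G29700, at 0.31 (SE 0.090) and with the lowest adjusted p of the set (limma, 0.49), followed by AT1G13930 (0.25, SE 0.17) and AT2G25150 (0.24, SE 0.089). At the low end were AT1G63190 (-0.16, SE 0.14), AT3G50430 (-0.13, SE 0.056) and AT5G49320 (-0.11, SE 0.066). In WT alone AT1G13930 (0.43), AT2G25150 (0.37) and AT5G44630 (0.32) were highest and AT1G63190 (-0.32), AT1G69800 (-0.23) and AT3G44280 (-0.22) lowest. In RNAi alone AT1G29700 (0.35), AT5G02240 (0.24) and AT1G19530 (0.17) were highest and AT1G30130 (-0.24), AT1G13910 (-0.16) and AT3G50430 (-0.15) lowest. None of these values passed. Several rested on 1 array: without WT control replicate 3 the zinc value of AT1G13930 was 0.058 in WT and 0.058 over both lines, without WT zinc replicate 2 that of AT1G63190 was -0.037 and -0.016, and without WT control replicate 2 that of AT1G69800 in WT was -0.086. The median zinc effect of the 56 genes was 0.018 over both lines, beside -0.0068 over all single-gene probe sets. Spike-in controls were lower on the zinc arrays, with a mean difference of -0.35 on the log2 scale, and their part in the zinc values was not tested.

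**Figure D5:**
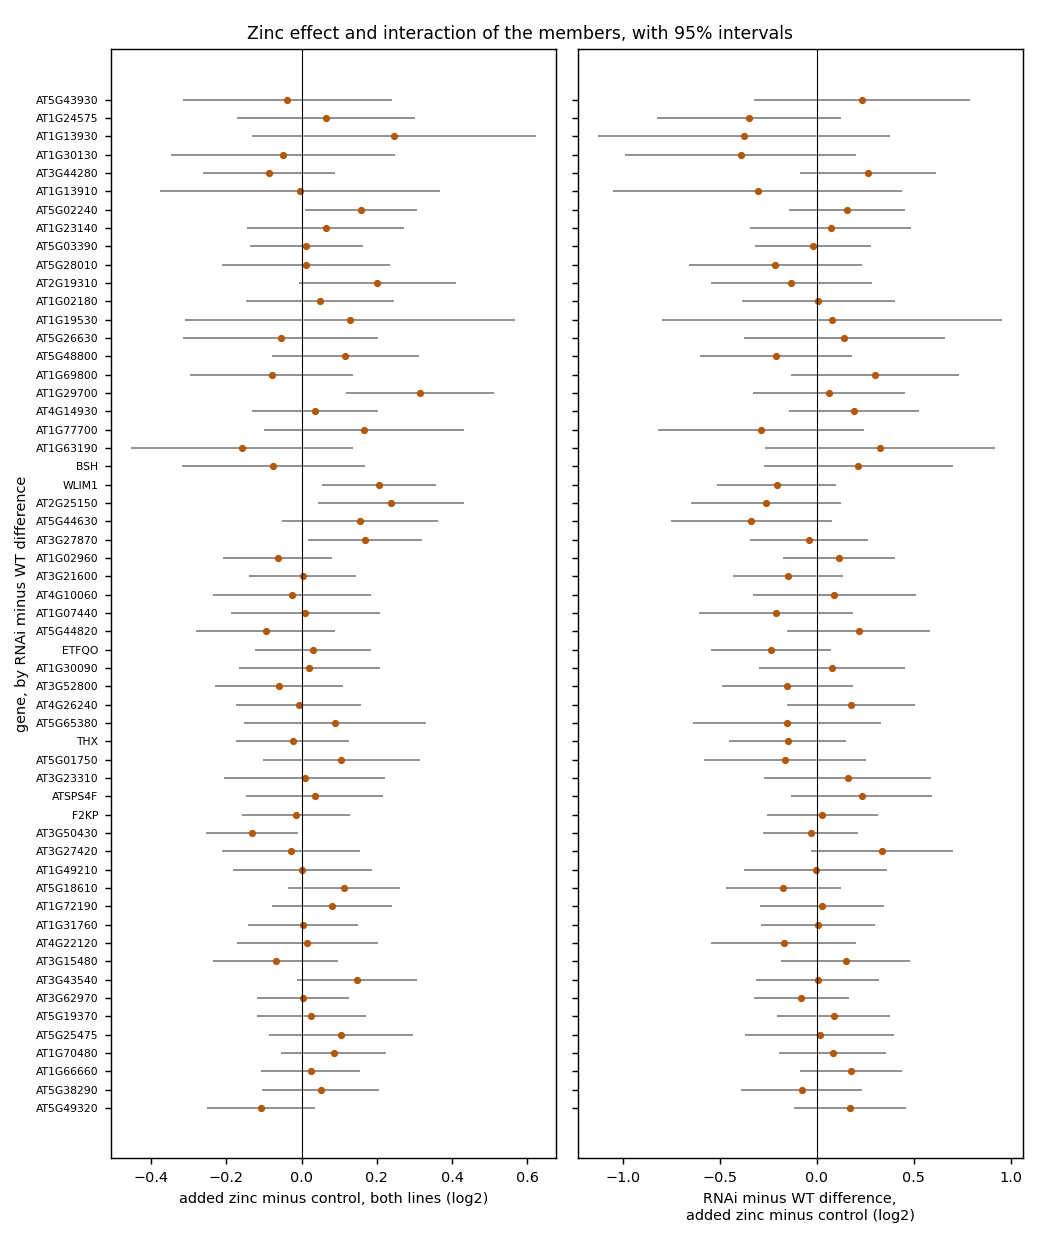
Estimate (point) and 95% interval (line, from limma's standard error, not adjusted for the number of genes) for each of the 56 genes, for added zinc minus control over both lines (left, log2) and for the interaction, the line difference with zinc minus that in control medium (right, log2). The intervals on the right all span 0, and on the left AT1G29700 lies farthest from it at 0.31.

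Spread within the lines was not the same for the 56 genes. The rule used these same values and kept out genes in which a stray array crossed between the lines. The spreads and highest arrays below are thus partly set by the choice and are a description. The SD over the 6 WT arrays had a median of 0.15 and that over the 6 RNAi arrays of 0.11, and 41 genes spread more in WT. For all single-gene probe sets the medians were 0.13 and 0.13. Among the WT arrays the 56 genes tended to be highest on replicate 1 in control medium (58.9% of them, beside 25.0% of all single-gene probe sets) and on replicate 3 with zinc (66.1%, beside 32.04%). In RNAi control these shares were 32.1% to 33.9%, and with zinc they were 26.8% on replicate 1, beside 42.7% of all single-gene probe sets, and 37.5% and 35.7% on the others, beside 28.6% and 28.7%. Without WT control replicate 1 the number of genes meeting the rule was 78 and without WT zinc replicate 3 it was 83, with all 56 kept in both cases.

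Deviations of the genes from their group means were compared over the 12 arrays, as a description of what varied together in these samples. Over the 1540 pairs of the 56 genes the median correlation was 0.13, beside 0.016 over all pairs of single-gene probe sets, and 61.5% were above 0. A correlation over 0.8 was found in 15 pairs (0.974%, beside 0.879% of all pairs). The highest joined the latex-protein relative AT5G28010 with the B3-domain gene AT5G25475 (0.90), AT1G30130 with the thaumatin-family gene AT1G77700 (0.88), AT5G28010 with AT3G43540 (0.88) and AT1G13910 with AT1G19530 (0.86). The WD40 gene AT5G43930 and the chromatin gene BSH followed each other at 0.84. Among the lowest, AT5G03390 and the terpene synthase AT5G44630 correlated at -0.92 and AT5G43930 and the heat shock gene AT2G19310 at -0.86. All points share the same 12 arrays, and the rule used these same values. The correlations may thus be partly set by the choice, as the highest arrays above are, and are a description.

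The positions of the genes in A. thaliana can be read from the locus identifiers that stand for 50 of the 56. On chromosome 1 lay 19 of them (38.0%, beside 26.0% of the 11933 single-gene probe sets with such an identifier), on chromosome 5 15 (30% beside 22.6%), on chromosome 3 10 (20% beside 20.5%), on chromosome 4 4 (8% beside 14.4%) and on chromosome 2 2 (4% beside 16.5%). AT1G13910 and AT1G13930 are numbered close together, with differences of 0.70 and 0.77. The locus numbered between them, AT1G13920, was at 0.063 with overlapping lines, and the deviations of the outer pair correlated at -0.49. AT1G30090 and AT1G30130, also close in number, differed by 0.41 and 0.71 and correlated at 0.43.

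Genes of metal handling were measured beside the set. Of 6 metal-binding and transport genes with a named probe set, 0 were among the 56 and the median line difference was -0.0091. The zinc transporter gene ZIP9 was at -0.021, ZIP6 at -0.035, the ferric reductase gene FRO1 at -0.015, the manganese transporter gene MTP11 at 0.16 and the metallothionein gene MT1C at 0.21, each with overlapping lines. Of 27 transcription factor genes found by symbol 0 were among the 56, with a median of 0.033 and a range of -0.34 to 0.25. Their lines all overlapped, and those with a lowercase first letter were barred by name as well. Both counts of 0 stand beside 0.437% of all single-gene probe sets, so nothing is read from them. The MADS-box gene AT5G26630 and the B3-domain gene AT5G25475 of the set carry locus identifiers and were not found by symbol. The gene bZIP19, which switches on zinc-deficiency genes in A. thaliana, was at 0.070. BCAT4, of the methionine-derived glucosinolate pathway, was at 0.074. No symbol of the MLP family was found. AT5G28010 is named by a locus identifier, and the list did not look for other family members named in that way.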

How the data were processed

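Root RNA of 4 groups of 3 samples was profiled on single-colour arrays. Each deposited value is a log2 expression summary per probe set, made by the authors with RMA and the affy package per the submitters' processing notes; versions, background step and probe definitions were not given in the sources used here. No further scaling was applied. Of 22810 probe sets 64 controls were left out, and of the 22746 tested 13513 carried 1 gene in the platform annotation, 503 several and 8730 none. A group-means model over the 12 arrays was fitted with limma 3.58.1 in R 4.3.3 (8 residual and 3.79 prior degrees of freedom), two-sided, with Benjamini-Hochberg adjustment over all probe sets of each comparison and a threshold of 0.05. The number of arrays limits the precision. No 2 replicates shared more than 0.062% of their values, and the fit was first tested on simulated data with normally distributed noise. That noise was drawn separately for each array and probe set, at the probe set's own residual SD. Variation shared between arrays or between probe sets was not simulated, so recovery in the real arrays may differ. Of 200 probe sets changed by 0.5 on the log2 scale the fit recovered 38.5% for zinc in WT and 46.5% in RNAi. Over both lines it recovered 78.5%, and for the interaction 0%. For changes of 1 these shares were 91%, 89%, 96.5% and 73%. A count of 0 for the interaction therefore says little about changes of 0.5 or less.

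The genes, lists and roles were chosen with earlier results of these data known. Named were the 30 largest differences, genes at the limits of the rule, the extremes of level, separation and each tested comparison, list members, and further genes with their difference. Gene lists were applied by symbol only, and promoters and proteins were not analysed here. Alternatives were quantile normalization, median centring, a filter on dim probe sets, a trended robust prior, array weights, the replicate number as a block, other limits of the rule, and each array left out.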

Additional observations from a re-analysis of the deposited data

How the results depend on the processing

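The number of genes meeting the rule was 55 after quantile normalization (50 of the 56 kept), 59 after median centring (53 kept), 45 among probe sets with a mean at or above the array median and 78 with a lower limit of 0.2. With a limit of 0.5 it was 20, with a median difference of 0.57. It ran from 61 to 87 with single arrays left out, the highest without RNAi zinc replicate 1, and the median difference from 0.40 to 0.44. Deviations of same-numbered arrays correlated at 0.16, 0.29 and 0.48 between the lines in control medium, at 0.34, 0.0091 and -0.021 with zinc, at -0.45 to -0.12 between the media in WT and at -0.084 to 0.41 in RNAi. Not every pair was over 0.1, and no label ties numbers to the 3 experiments, so the numbers were not taken as pairs. With the replicate number as a block 82 genes met the rule (50 kept), and 2 probe sets passed for zinc over both lines, none of them among the 56. Of quantile normalization, median centring and this block, AT1G30130, WLIM1 and AT4G10060 were each kept in only 1 of 3 settings. Kept in 2 of 3 were AT1G13910, AT1G19530, AT1G77700, AT2G25150, AT5G44820, AT3G23310, ATSPS4F, AT4G22120 and AT5G38290. With single arrays left out, 0 to 1 probe sets passed for zinc in WT and 0 to 4 over both lines, 0 of the 56 genes passed in any of the 4 tested comparisons, and the median interaction ran from -0.052 to 0.040. Of the named values 3 changed sign with an array left out: the zinc effect in RNAi of AT1G19530 (-0.00999 to 0.29) and AT1G13910 (-0.39 to 0.020), and the interaction of AT1G13930 (-0.57 to 0.00076); the cause was not tested. The other 21 named zinc and interaction values kept their direction and all 24 stayed short of the threshold, but sizes rested on single arrays: the interaction of AT1G63190 was 0.042 without WT zinc replicate 2, that of AT1G24575 -0.14 and that of AT1G69800 0.16 without WT control replicate 2, and that of AT1G30130 -0.24 without WT control replicate 3. In WT the zinc value of AT3G44280 was -0.10 and that of AT5G44630 0.19 without WT control replicate 1, that of AT2G25150 0.24 without replicate 3, and in RNAi that of AT1G30130 -0.14 without RNAi zinc replicate 1. Over both lines that of AT5G49320 was -0.070 without WT zinc replicate 2. No detection call was used, so how far a dim gene such as ATSPS4F lay above background is not known here.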

Other observations

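Probe sets that the annotation pairs with no gene met the same rule about as often as the named ones: 38 of 8730, or 0.435%, with a median difference of 0.44. These were picked with their values known and carry no name here. The largest difference among them, 1.52, belonged to 248579_at. It read 6.66, 6.59 and 6.29 in WT control, 6.31, 6.64 and 7.79 in WT with zinc, 8.31, 8.18 and 8.14 in RNAi control and 8.05, 8.35 and 8.39 in RNAi with zinc. WT zinc replicate 3 stood well above the other WT arrays and still 0.25 below the RNAi arrays. Probe set 265253_at differed by 0.75 with 0.36 between its closest arrays. Of the 503 probe sets annotated to several genes 1 met the rule (0.199%).

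Several named genes had larger mean differences than the 56 but overlapped between the lines, and these too were picked after their values were seen. ASPGA1, an asparaginase, was 1.17 higher in RNAi in the mean and just overlapped, with the lowest RNAi array minus the highest WT array at -0.0048 on the log2 scale. STZ, a zinc-finger repressor of stress responses in A. thaliana, was 1.02 higher with that value at -0.41, and the linker histone HIS1-3 1.05 higher with that value at -2.74. Aside from names left out by the rule, 63 single-gene probe sets differed by at least 0.5 in the mean without separating the lines, beside the 20 of the 56 that reached this size.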
